A study of Mus musculus with 8 samples.

Results

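The 2 T cell leukemia lines that both lack E2a were compared with all 8 arrays of the series, 4 arrays of each line. Arrays were assigned to a line by the line number in their title, and all 8 of 8 samples entered the comparison. The mice of the study had been backcrossed to the FVB/NJ strain for at least 8 generations, and both lines were grown from thymic cells of sick mice. The line of genotype E2a-/- with intact Lef1 alleles is named the E2a-/- line. The line of genotype E2a-/-Lef1F/F is named the Lef1F/F line, and loxP sites flank the stretch for the DNA binding domain in both of its Lef1 copies. Each line was infected with MigR1, a retrovirus that makes GFP, or with MigR1-Cre, which also makes the recombinase Cre, and GFP+ cells were taken for RNA 72 h after infection. Each of the 4 groups had 2 arrays: E2a-/- MigR1, E2a-/- MigR1-Cre, Lef1F/F MigR1 and Lef1F/F MigR1-Cre. Ages of the mice were not stated. There was 1 line per genotype, so line and genotype cannot be told apart, and every difference below is a difference between these lines. Whether the 2 arrays of a group were grown as separate cultures is not stated, and p-values then rest on a spread between arrays that may be technical.

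E2a encodes the E proteins E12 and E47, which guide early T cell development, commit progenitors to the T lineage and restrain proliferation until a working T cell receptor chain has been made. Thymocytes pass from CD4- CD8- double negative stages, of which DN3 is the stage where the T cell receptor beta chain is assembled and checked (beta-selection), to the CD4+ CD8+ double positive stage and then to mature T cells. Leukemias of mice that lack E2a are known to depend on Notch signaling, and LEF1, the product of Lef1, is a DNA binding protein of the Wnt pathway that acts in the same window of development.

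Intensities were given for 45037 probe sets per array, a probe set being a group of short probes for 1 transcript, and 18193 genes were named from them, each by its brightest probe set. The median intensity of the arrays lay between 88.9 and 91, and precision is limited by how few arrays there are. A difference is given on the log2 scale as Lef1F/F minus E2a-/-, from a limma fit with line and vector as terms, and its p is the limma adjusted p over all probe sets. Levels are means ± SD of linear intensities over the 4 arrays of a line. Intensities of different genes are not compared, because probe sets differ in brightness. A level below 179, which is 2 times the median of the arrays, is called dim here, and RMA, the authors' normalisation, compresses differences in that range, so that a fold against a dim group is not exact. Since cells were measured in bulk, a gene carried by fewer cells and a gene with less RNA in each cell cannot be told apart.

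The first principal component took 77% of the variance over the 8 arrays and separated the lines. The next, with 10.5%, split the Lef1F/F arrays into array 1 of both vectors on one side and array 2 of both vectors on the other. The correlation between those same-numbered Lef1F/F arrays was 0.9975 in both cases, against 0.9945 and 0.9943 between the 2 arrays of a group. Between the lines the correlation lay between 0.9775 and 0.9833. The spread of the log2 difference between the 2 arrays of a group was 0.107 and 0.119 in the E2a-/- line and 0.182 and 0.185 in the Lef1F/F line. When each pair of alike arrays was averaged, 2 against 2, the number of probe sets called in the fit over all arrays fell from 9950 to 5238.

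As a check of the labels, the targeted gene was read first. Lef1 had 2 probe sets, and the brighter gave 3288 and 3337 in the E2a-/- MigR1 arrays and 3008 and 3416 in the E2a-/- MigR1-Cre arrays. In the Lef1F/F line it gave 6918 and 6126 in the MigR1 arrays and 1903 and 1678 in the MigR1-Cre arrays. The Lef1F/F arrays thus lay above all E2a-/- arrays with MigR1 and below them with MigR1-Cre. The line difference was 0.97 with MigR1 (limma adjusted p = 0.000368) and -0.84 with MigR1-Cre (limma adjusted p = 0.00085). The difference between these values was itself past the threshold, at -1.82 (limma adjusted p = 0.0184). That call was lost without any 1 of the 4 E2a-/- arrays (limma adjusted p between 0.166 and 0.213), with the difference then between -1.91 and -1.73. The other probe set gave 1.01 and -1.38. The position of either probe set relative to the deleted part was not stated. Tcf3, the mouse symbol of E2a, read 828 ± 35.3 in the E2a-/- line and 704 ± 137 in the other line (limma adjusted p = 0.192), and since both lines carry the deletion and its probes may lie outside it, this level checks nothing. Of the 10 named genes measured on each side of Lef1 on chromosome 3, 2 of 20 differed in both vectors, Casp6 and Pla2g12a, each higher in the Lef1F/F line by 0.74. The median over the 20 neighbors was -0.01.

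With vector as a covariate, 9950 probe sets differed between the lines at an adjusted p threshold of 0.05. Of these, 4601 were higher in the Lef1F/F line, which is 10.2% of 45037 probe sets, and 5349 were lower, which is 11.9%. To keep differences that did not rest on 1 vector, a probe set was called only when it passed in the MigR1 arrays and in the MigR1-Cre arrays with the same sign, in a fit of 4 group means. This left 3802 probe sets, 2109 higher (4.68%) and 1693 lower (3.76%). Another 5 probe sets passed in both vectors with opposite signs, and Lef1 accounted for 2 of them. By gene, 1256 were higher in both vectors, which is 6.9% of 18193 genes, and 887 were lower, which is 4.88%. Among the 8023 genes above the dim range in at least 1 line, the shares were 12.7% higher and 9.41% lower. These percentages are the background for every list below. The median difference over all genes was 0.00, and the median size among called genes was 0.55. Of the 2143 called genes, 412 differed by more than 1 on the log2 scale, 283 of them higher and 129 lower in the Lef1F/F line. Several probe sets were present for 1250 called genes, of which 529 had another one called the same way and 9 one called the opposite way. The count of 3802 fell to 2018 and 2112 without E2a-/- MigR1 array 1 or 2, and to 2435 and 2446 without E2a-/- MigR1-Cre array 1 or 2.

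**Figure D1:**
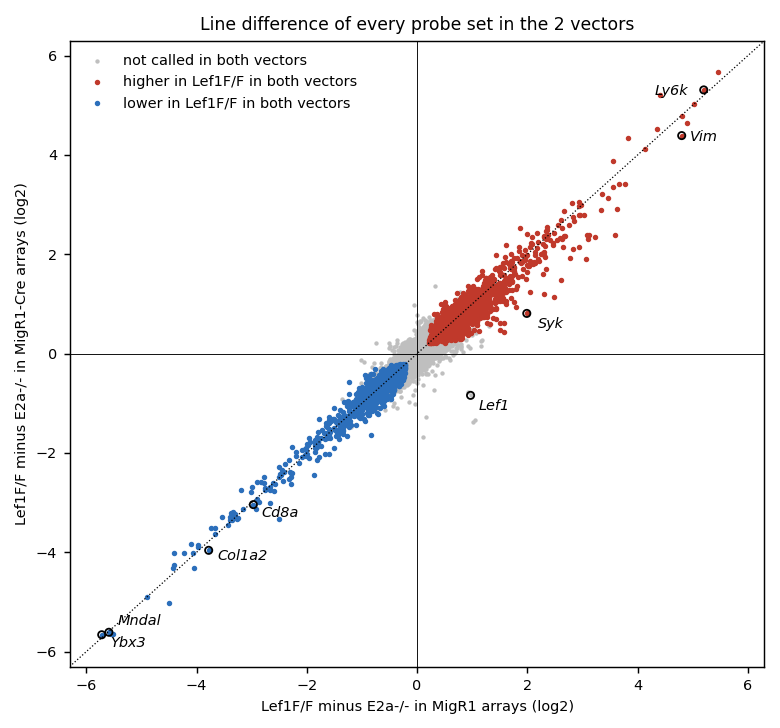
The difference of each of 45037 probe sets between the lines (log2, Lef1F/F minus E2a-/-) in the MigR1 arrays is plotted on the x axis and in the MigR1-Cre arrays on the y axis. The 2109 red and 1693 blue probe sets, called in both vectors, lie along the dotted line of equal difference, Lef1 lies apart at 0.97 and -0.84, and Syk lies below the line at 1.99 and 0.81.

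The 24 genes with the largest differences were read by their brightest probe sets. Except Col1a2 and Laptm4b, they were dim in 1 line and above the dim range in the other. The 12 largest higher in the Lef1F/F line were Ly6k, Dsp, Vim, Scel, Myzap, Gfra1, Ddr1, Micu2, Acvr1, 2300002M23Rik, St6gal1 and Slc2a3. Ly6k, a GPI-anchored protein of the Ly6 family, read 79, 67.8, 69.7 and 85.9 in the E2a-/- arrays and 2820, 2577, 3296 and 2843 in the Lef1F/F arrays, in the order MigR1 array 1 and 2 and MigR1-Cre array 1 and 2 that is kept throughout. Its difference was 5.25 ± 0.08 (SE, limma adjusted p = 4.12e-10), the largest among named genes that rose. Vim encodes vimentin, an intermediate filament protein, and read 112, 136, 123 and 150 against 3667, 3232, 2853 and 2837, a difference of 4.59. Dsp encodes desmoplakin, which ties intermediate filaments to cell junctions, and read 53.4, 58.6, 58.4 and 56 against 1206, 1151, 2098 and 2114. Within the Lef1F/F line its MigR1-Cre arrays were the higher ones, yet all 4 stood far above the E2a-/- arrays. The line difference of Dsp did not differ between the vectors past the threshold (limma adjusted p = 0.0947). Scel, Myzap, Gfra1, Ddr1 and Micu2 had differences of 4.43, 4.13, 3.72, 3.60 and 3.54. Gfra1 encodes a receptor component for the GDNF family, Ddr1 a tyrosine kinase that binds collagen, and Micu2 a regulator of mitochondrial calcium uptake. Acvr1, a receptor of the BMP and activin family, rose from 47.9 ± 1.05 to 476 ± 69.8, and St6gal1, which adds sialic acid to glycans, from 99.5 ± 9.7 to 977 ± 214. In none of the 12 did the arrays of the lines overlap, which the naming rule had required. All 3 probe sets were called higher for Vim and for Gfra1, and 2 of 3 for Dsp and for Acvr1. For Slc2a3 2 of 4 were called, for Ddr1 3 of 8, and 1 of 2 each for Ly6k, Scel and St6gal1. Those called for Ddr1 gave 3.60, 1.86 and 1.02, and those for Acvr1 3.30 and 0.96.

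The 12 largest lower in the Lef1F/F line were Ybx3, Mndal, Basp1, Arntl2, Matn2, Peg3, Wls, Col1a2, Ctnna1, Sertad4, Fmnl2 and Laptm4b. Ybx3, a cold shock domain protein that binds DNA and RNA, read 3819, 3741, 3822 and 3556 in the E2a-/- arrays and 73.3, 70.3, 68 and 78 in the Lef1F/F arrays. Its difference was -5.69 ± 0.05 (SE, limma adjusted p = 1.69e-11), and both of its probe sets were called. Mndal, an interferon-inducible protein of the p200 family, read 2937, 2983, 2667 and 2744 against 61.9, 61, 50.9 and 60.7. Its Lef1F/F arrays were all dim in both vectors. Basp1, a membrane-bound signaling protein, fell from 2164 ± 180 to 72.7 ± 2.09, and Arntl2, a partner of the clock protein CLOCK, from 931 ± 42.3 to 46.2 ± 3.4. Peg3, an imprinted zinc finger gene expressed from the paternal allele, fell from 1007 ± 109 to 61.3 ± 6.12. Ctnna1, which encodes alpha-catenin of adherens junctions, fell from 2169 ± 42.3 to 178 ± 28.7. Laptm4b fell from 2417 ± 66.9 to 229 ± 29.4 by its brightest probe set, a difference of -3.41. Its other probe sets were dim in the Lef1F/F line, at 2332 against 48.8 (-5.58) and 1130 against 73.8 (-3.94). Col1a2, a chain of type I collagen, read 4131, 4189, 4377 and 4277 against 311, 294, 306 and 252. By this probe set Col1a2 stayed above the dim range in the Lef1F/F line. Its other probe sets, also called lower, read 1071 against 105 and 88 against 48.5 and were dim there. Col1a1, its partner chain, was dim in both lines at 64.6 and 64.8.

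**Figure D2:**
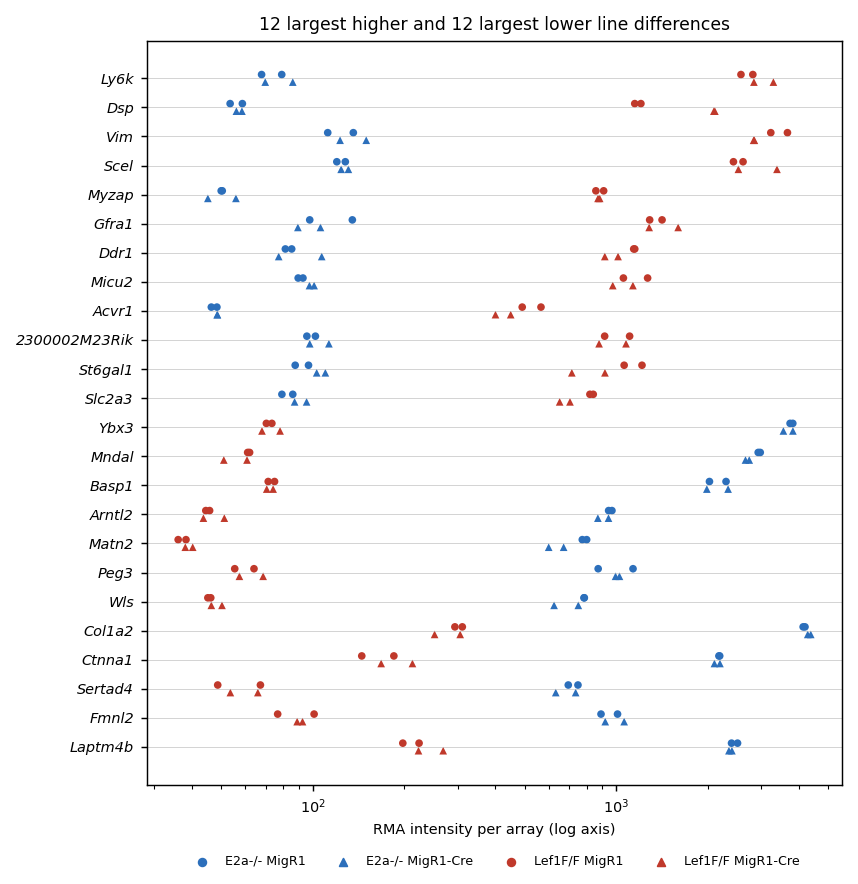
Intensity in each of the 8 arrays (log axis) is shown for the 12 genes with the largest higher and the 12 with the largest lower difference. Circles are MigR1 and triangles MigR1-Cre arrays, blue for the E2a-/- and red for the Lef1F/F line, and in each gene the 2 colors stand apart, from 75.6 against 2884 for Ly6k to 3734 against 72.4 for Ybx3 (means).

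Promoter sequence is shown for the largest called genes in each direction for which the reference table had it, to give the sequence context of the transcripts that separate the lines. The sequences are from RefSeq (GRCm38.p6) and run from 250 bases before to 50 after the start of each gene, in the direction of the gene. Capitals mark 3 short motifs searched on both strands: CTTTGA, the core bound by TCF/LEF proteins, and CAGCTG and CAGGTG, E-box forms bound by E proteins.

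Dsp, chr13:38151044-38151343, plus strand: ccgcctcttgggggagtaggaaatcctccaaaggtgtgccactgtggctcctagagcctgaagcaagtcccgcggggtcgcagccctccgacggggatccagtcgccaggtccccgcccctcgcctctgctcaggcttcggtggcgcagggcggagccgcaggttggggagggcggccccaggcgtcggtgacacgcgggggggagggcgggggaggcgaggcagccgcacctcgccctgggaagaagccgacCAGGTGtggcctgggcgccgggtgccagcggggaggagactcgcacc

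Ybx3, chr6:131388401-131388700, minus strand: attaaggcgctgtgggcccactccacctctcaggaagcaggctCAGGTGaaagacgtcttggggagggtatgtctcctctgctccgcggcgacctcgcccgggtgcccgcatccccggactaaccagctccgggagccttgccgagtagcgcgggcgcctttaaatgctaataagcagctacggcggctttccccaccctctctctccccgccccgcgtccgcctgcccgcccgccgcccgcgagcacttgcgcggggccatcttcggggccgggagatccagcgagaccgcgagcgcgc

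Mndal, chr1:173880138-173880437, minus strand: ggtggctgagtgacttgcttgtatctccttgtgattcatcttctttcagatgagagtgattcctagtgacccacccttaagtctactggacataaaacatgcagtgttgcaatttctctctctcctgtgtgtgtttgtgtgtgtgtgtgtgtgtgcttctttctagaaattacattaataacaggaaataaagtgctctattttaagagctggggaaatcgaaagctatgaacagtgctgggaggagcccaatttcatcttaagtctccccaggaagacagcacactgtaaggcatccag

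CTTTGA was in none of the 3 promoters and CAGCTG in none, while Dsp and Ybx3 had 1 CAGGTG each and Mndal had none of the 3 motifs. Over 27025 promoters of the same length, 1 per gene, CTTTGA was held by 16.2%, CAGCTG by 16.1% and CAGGTG by 20%. A match is only a description of the letters, and no match says nothing about binding.

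The labelled cell type was checked against its markers. Several T cell genes were bright in both lines. On average Cd3d read 7976 and 10191 and Cd3g 4946 and 7405 in the E2a-/- and Lef1F/F line. Thy1 read 5332 and 4539, and Bcl11b 4129 and 5263. Of 8 T cell markers measured, 4 were higher in the Lef1F/F line in both vectors (Cd2, Cd3g, Bcl11b and Cd3e) and none was lower. Their summed intensity lay between 24671 and 25343 in the E2a-/- arrays and between 27168 and 33961 in the Lef1F/F arrays. Of the 8 T cell markers, 1 was dim in both lines, and Cd2 was dim in the E2a-/- line (111 and 221). Of the 4 probe sets of Bcl11b, 2 were called higher and 1 gave a difference of 0.00. The 8 B cell, 9 myeloid and 5 NK markers measured were all dim in both lines, as were the 4 erythroid markers. Their summed intensities were 678 to 699 against 643 to 661 for B cells, 720 to 749 against 711 to 738 for myeloid cells, 329 to 344 against 331 to 334 for NK cells and 330 to 341 against 305 to 316 for erythroid cells. Blnk (123 and 92.6) and Gata1 (113 and 92.8) were called lower within that dim range, and each lost its call in 6 of 8 fits that left out 1 array. Of 8 stromal markers, 5 were dim in both lines and only Col1a2 was called. Col1a1, Col3a1, Epcam, Krt8 and Cdh5 were dim in both lines. In the fit over all arrays 1 stromal marker was higher and 1 lower, the lower one being Col1a2. Why the Col1a2 level differed was not tested.

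Among lineage stages, the DN3 and beta-selection list had 15 members measured, of which 5 were higher in both vectors and none lower. Its median difference was 0.31 against 0.00 over all genes. Shares higher and lower were 33.3% and 0% for this list and 0% and 6.25% for early T progenitor genes. The double positive and the mature T cell lists each had 13.3% and 13.3%. Background shares were 12.7% and 9.41% above the dim range, and 6.9% and 4.88% over all genes. Dtx1, a Notch target that encodes an E3 ubiquitin ligase, read 366, 332, 390 and 379 in the E2a-/- arrays and 2043, 1486, 2087 and 1429 in the Lef1F/F arrays, a difference of 2.24 ± 0.13 (SE, limma adjusted p = 1.82e-06). In the Lef1F/F line array 1 of each vector was the higher one, and the lines did not overlap. Rag2, needed with Rag1 to recombine receptor genes, read 160, 140, 163 and 131 against 421, 416, 439 and 488. Hes1, another Notch target, rose by 1.35, Cd27, a costimulatory receptor that marks DN3 cells leaving beta-selection, by 1.12, and Cd3e by 0.34. Rag1 (7279 and 7887), Ptcra, the invariant partner of the beta chain (2170 and 2092), and Il2ra, which is CD25 (124 and 158), were not called. The early T progenitor list had 1 of 16 members called, with 12 dim in both lines. Kit, the stem cell factor receptor, read 240, 246, 258 and 272 in the E2a-/- arrays and 75.3, 69.8, 68.5 and 77.5 in the Lef1F/F arrays, a difference of -1.80. All other members of that list lay within 0.15 of 0.

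The double positive list had 2 members higher and 2 lower of 15. Cd8a, the CD8 alpha chain, gave 1975, 1824, 1989 and 1746 in the E2a-/- arrays and 232, 253, 223 and 231 in the Lef1F/F arrays. This is a difference of -3.00 ± 0.06 (SE, limma adjusted p = 1.12e-09), with all 5 probe sets of Cd8a lower. Cd8b1, the beta chain of the same receptor, was not called, at 1009 and 924, and Cd4 was dim at 153 and 150. Ccr9, a thymic homing receptor, rose by 1.30 and Satb1, a chromatin organiser, fell by 0.45. In the list of mature T cell and egress genes, 2 were higher and 2 lower of 15. Il7r, the receptor for interleukin 7, read 800, 718, 770 and 700 against 249, 285, 172 and 224, a difference of -1.71. Bcl2, which protects from cell death, read 51.5, 51.4, 58.8 and 63.5 against 259, 255, 238 and 236, a difference of 2.14, and 4 of its 5 probe sets were higher. Tox, a factor of the CD4 lineage, rose by 1.65, and Ms4a4b fell by 0.81. Klf2, S1pr1 and Ccr7, genes of thymic egress, were dim in both lines.

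E proteins and their inhibitors also differed. Tcf4, which encodes the E protein E2-2, read 416, 418, 435 and 438 in the E2a-/- arrays and 53.6, 57.1, 68 and 48.7 in the Lef1F/F arrays, a difference of -2.92 ± 0.09 (SE, limma adjusted p = 2.28e-08). Of its 6 probe sets, 5 were lower. Tcf12, which encodes HEB, was not called (5281 and 6548). The inhibitors of E proteins moved apart. Id3 read 77.3, 82.1, 79.6 and 71.1 against 726, 605, 281 and 282, so that the Lef1F/F MigR1 arrays were above the Lef1F/F MigR1-Cre arrays and both above the E2a-/- arrays. The line difference of Id3 did not differ between the vectors past the threshold (-1.15, limma adjusted p = 0.0947). Id2 read 1291, 1227, 1243 and 956 against 712, 788, 620 and 712, a difference of -0.73. In the list of gamma-delta and innate-like T genes, 3 of 17 were higher and 2 lower (17.6% and 11.8%, against 12.7% and 9.41% above the dim range). Il17rb rose by 1.44 and Gzma, a granzyme, by 0.47, while Rora, a nuclear receptor, fell by 1.24. Among 18 T lineage transcription factors 4 were higher and 2 lower (22.2% and 11.1%), with a median of 0.26. Ikzf2 rose by 0.65 and Ikzf3, its paralog, fell by 0.44. Of 3 Ikzf2 probe sets 1 was called, and another, at 250 and 256, gave 0.01. Of 18 oncogenic factors of T cell leukemia, 14 were dim in both lines and only Myb was called, at 7798 and 9955. Myc read 2799 and 2803, and Mycn 9369 and 8300. The summed intensity of the 18 oncogenic factors varied within each line, from 18436 to 24992 in the E2a-/- arrays and from 20015 to 24738 in the Lef1F/F arrays. The calls of Id2, Ikzf2, Ikzf3, Myb, Cd3e, Cd3g and Bcl11b in both vectors were lost when certain single arrays were left out, while their difference over all arrays stayed past the threshold. With 1 array left out, between 2 and 5 T lineage factors and between 1 and 4 T cell markers were higher, and 1 or 2 T lineage factors and 1 or 2 gamma-delta genes lower.

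**Figure D3:**
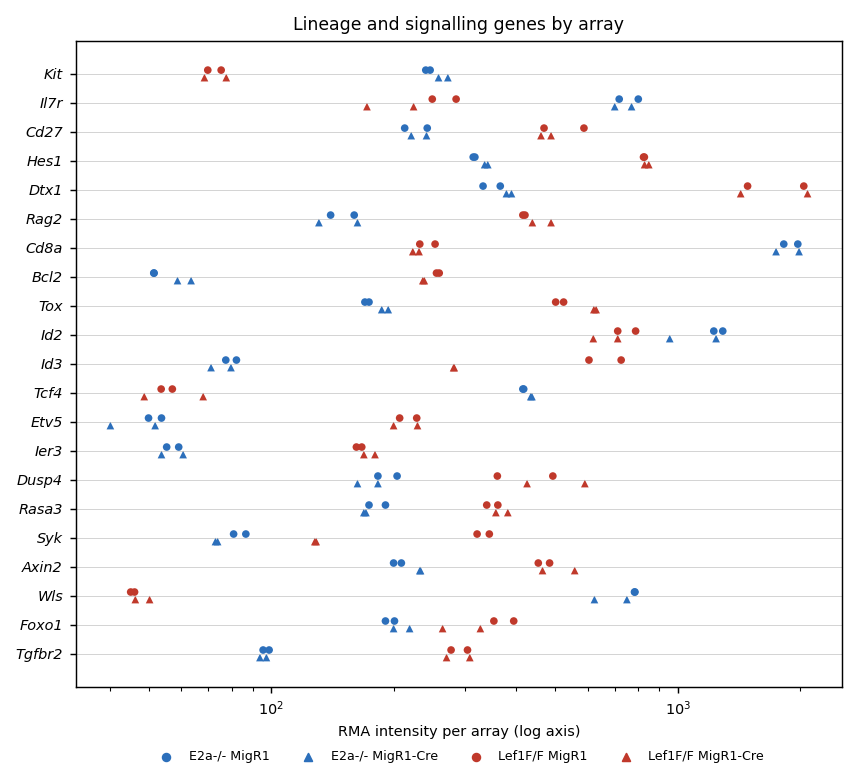
Intensity in each of the 8 arrays (log axis) is shown for 21 lineage and signaling genes, with circles for MigR1 and triangles for MigR1-Cre arrays, blue for the E2a-/- line and red for the Lef1F/F line. Cd8a and Wls lie far lower in red and Dtx1 far higher, while the red circles and triangles of Id3 and Syk lie apart from each other. Of Id3 and Syk, only Syk had a line difference that itself differed between the vectors past the threshold.

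Signaling lists had shares higher and lower of 40.6% and 3.12% (Ras and MAPK) and 25.8% and 12.9% (T cell receptor). They were 20.7% and 6.9% for Notch, 22.9% and 8.57% for Wnt and 25.9% and 0% for PI3K, Akt and Foxo. Cytokine and Hedgehog genes had 17.8% and 11.1%, and 21.4% and 0%. Background shares were 12.7% and 9.41% above the dim range, and 6.9% and 4.88% over all genes. Of the Ras and MAPK list, 13 of 32 members were higher and 1 lower in both vectors. Its median difference was 0.31. Over the 8 arrays left out in turn, the number higher lay between 8 and 15. Etv5, an ETS factor induced by ERK, read 53.7, 49.9, 40.2 and 51.8 in the E2a-/- arrays and 228, 207, 200 and 229 in the Lef1F/F arrays, a difference of 2.15 (limma adjusted p = 1.72e-07). Ier3, an immediate early gene, rose by 1.57. Dusp4, a phosphatase that acts on ERK, read 183, 204, 183 and 163 against 360, 493, 426 and 591. Rasa3, which switches Ras off, rose by 1.03, and Rasgrp1, which switches Ras on below the T cell receptor, by 0.96. Spry1, a feedback inhibitor of receptor tyrosine kinases, was the member that fell, by 0.71. Members of the list thus included activators, inhibitors and targets of the pathway among those that rose. The Dusp4 call was lost without E2a-/- MigR1 array 1.

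In the T cell receptor list, 8 of 31 members were higher and 4 lower. Syk, a kinase that can act beside ZAP70, read 80.8, 86.6, 73.8 and 72.9 in the E2a-/- arrays. In the Lef1F/F arrays it read 344, 321, 129 and 128, higher with MigR1 than with MigR1-Cre, and all 4 were above the E2a-/- arrays. Its line difference was 1.99 with MigR1 and 0.81 with MigR1-Cre, and these values differed from each other (-1.18, limma adjusted p = 0.0184). The difference between vectors lost its call in 7 of 8 fits that left out 1 array, among them those without any 1 of the 4 E2a-/- arrays, with limma adjusted p up to 0.241, while Syk stayed higher in both vectors in all 8. Prkch and Tec, kinases of the receptor pathway, rose by 0.72 and 0.58, and Vav3, an exchange factor, fell by 0.80 within the dim range. Zap70 read 1504 and 1705 and was not called. The Tec call was lost without E2a-/- MigR1-Cre array 1, and with 1 array left out between 5 and 10 members were higher and between 2 and 4 lower.

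Notch genes showed 6 of 29 members higher and 2 lower, with a median of 0.05. Besides Dtx1 and Hes1, described above, the receptors Notch1 and Notch2 rose by 0.36 and 0.43 and Mfng, which adds sugars to Notch, fell by 0.65. Nrarp and Hes5, further targets, were dim in both lines. In the Wnt list 8 of 35 members were higher and 3 lower. Wls, needed to secrete Wnt proteins, read 785, 783, 750 and 624 in the E2a-/- arrays and 45.1, 46.1, 46.3 and 50.2 in the Lef1F/F arrays. Axin2, a feedback inhibitor and common Wnt target, read 209, 200, 233 and 232 against 484, 454, 558 and 465, a difference of 1.17. The MigR1 and MigR1-Cre arrays of the Lef1F/F line overlapped for Axin2, whereas those for Lef1 did not. Tnfrsf19 and Wif1, an inhibitor of Wnt ligands, rose by 1.36 and 1.18. Ccnd1, cyclin D1, fell by 0.89. The call of Notch2 was lost in 7 of 8 fits that left out 1 array, and between 2 and 5 Notch genes were higher and 1 or 2 lower in those fits.

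Of 27 PI3K, Akt and Foxo genes, 7 were higher and none lower. Inpp5d, the lipid phosphatase SHIP1, rose by 1.06, Igf1r by 1.03, Pik3ip1, an inhibitor of PI3K, by 1.02 and Foxo1 by 0.71. Sgk1, a kinase of this pathway, read 1433 and 897 and was not called. Of 45 cytokine receptor and JAK-STAT genes, 8 were higher and 5 lower. Tgfbr2, the type II receptor for TGF-beta, read 98.8, 95.5, 93.8 and 97.3 in the E2a-/- arrays and 277, 304, 270 and 308 in the Lef1F/F arrays, a difference of 1.59. Of 3 Tgfbr2 probe sets 1 was called. Il15ra rose by 1.26 and Socs2 by 1.13, while Socs1, another feedback inhibitor of cytokine signaling, fell by 0.62. In the Hedgehog list 3 of 14 members were higher and none lower. Gli1, a target and effector, read 171, 156, 167 and 166 against 411, 284, 349 and 244. Cdon, a co-receptor, rose by 0.52 and Smo, the signal transducer, by 0.29. Of 3 Smo probe sets 1 was called, and another, at 1034 and 903, gave -0.23. Ptch1, the receptor, read 1202 and 1626 and was not called, and the ligands Shh, Ihh and Dhh were dim. The calls of Inpp5d, Foxo1, Gli1 and Smo were lost with certain single arrays left out, and 1 to 3 Hedgehog genes were then higher. With 1 array left out, the genes higher numbered 4 to 7 in the PI3K list, with at most 1 lower. In the cytokine list 5 to 7 were then higher, fewer than the 8 called with all arrays, and 4 to 6 lower.

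**Figure D4:**
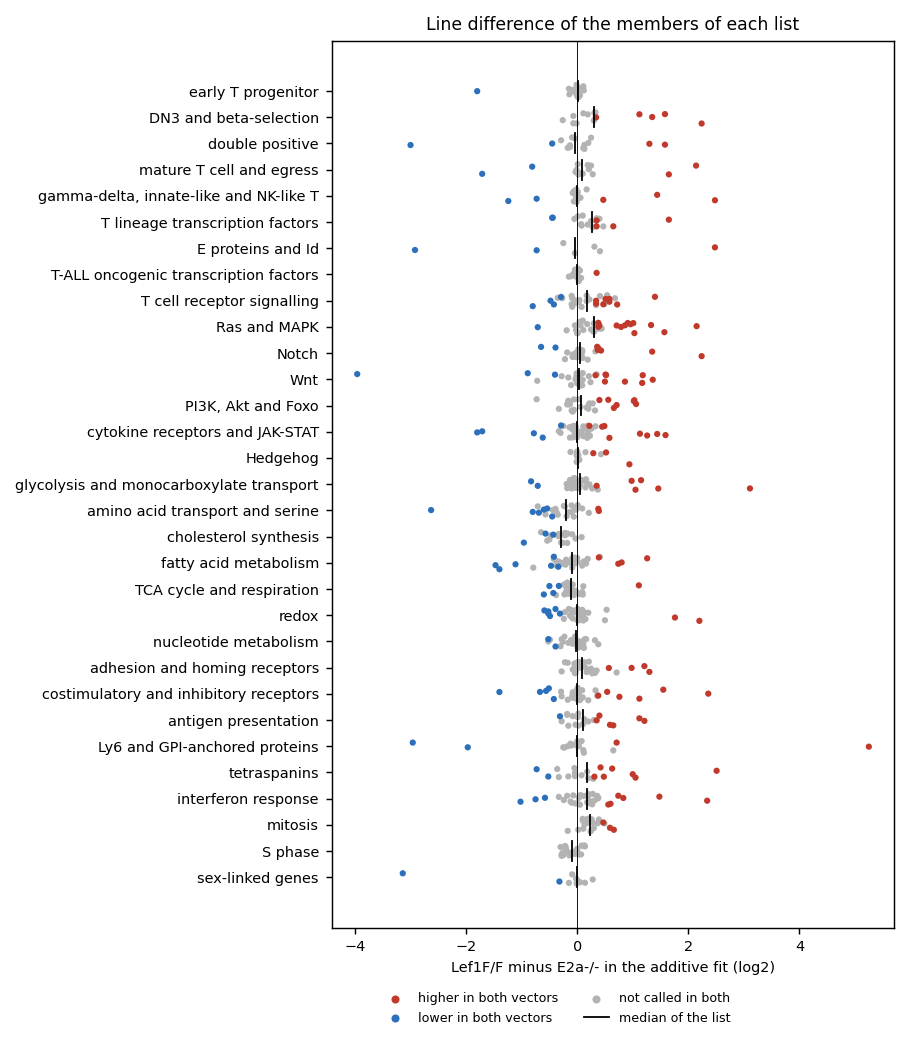
Each point is the line difference (x axis, log2, Lef1F/F minus E2a-/-) of 1 measured member of the list named on the y axis, red or blue where it was called higher or lower in both vectors and gray otherwise, with a black bar at the median of the list. The medians of the DN3 and the Ras and MAPK lists lie at 0.31, that of the cholesterol list at -0.29, and most of the others near 0.

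Metabolic lists had shares higher and lower of 19.4% and 6.45% (glycolysis and monocarboxylate transport) and 7.14% and 21.4% (amino acids). They were 3.45% and 13.8% for the TCA cycle, 5.88% and 17.6% for redox and 0% and 7.14% for nucleotides. Background shares were 12.7% and 9.41% above the dim range, and 6.9% and 4.88% over all genes. Of 31 glycolysis and monocarboxylate transport genes, 6 were higher and 2 lower. The glucose transporters moved in opposite directions. Slc2a3, which encodes GLUT3, read 79.1, 85.9, 95.4 and 87.1 in the E2a-/- arrays and 819, 840, 651 and 704 in the Lef1F/F arrays, a difference of 3.11 ± 0.09 (SE, limma adjusted p = 1.42e-08). Slc2a1, which encodes GLUT1, fell by 0.83, from 468 to 264. The isoforms of phosphofructokinase also moved in opposite directions, with Pfkp higher by 1.15 and Pfkm lower by 0.71. Pdk3, which restrains pyruvate dehydrogenase, rose by 1.05 and Slc16a10, a carrier of the monocarboxylate transporter family that moves aromatic amino acids, by 1.46 with all 4 probe sets higher. The enzymes Aldoa, Tpi1, Pgk1, Pgam1 and Ldha were bright and not called, and neither was the lactate carrier Slc16a1 (8882 and 7759).

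Several lipid synthesis genes were lower in the Lef1F/F line. Shares higher and lower were 0% and 15.8% for cholesterol synthesis and 11.4% and 17.1% for fatty acid genes. Background shares were 12.7% and 9.41% above the dim range, and 6.9% and 4.88% over all genes. Of 19 cholesterol synthesis genes, none was higher and 3 were lower in both vectors, and 10 were lower in the fit over all arrays. Their median was -0.29. Lss, which forms lanosterol, read 1608, 1364, 1624 and 1343 in the E2a-/- arrays and 812, 842, 653 and 742 in the Lef1F/F arrays. Of 3 Lss probe sets 1 was called, and in another, at 450 and 333, the arrays of the lines overlapped. Fdps and Dhcr7 fell by 0.57 and 0.43. Of 35 fatty acid genes, 4 were higher and 6 lower. Those that fell include Elovl6, Scd1 and Fasn, which elongate, desaturate and build fatty acids, by 1.47, 1.40 and 1.11. Fasn read 4118, 3497, 4083 and 3969 against 2189, 1652, 2016 and 1473. Cpt1a, which brings fatty acids into mitochondria to be burned, rose by 1.26. The call of Fasn was lost without E2a-/- MigR1 array 1, and those of Fdps and Dhcr7 with several arrays, so that between 1 and 4 cholesterol genes were lower with 1 array left out. Between 2 and 6 fatty acid genes were then lower and between 3 and 5 higher, and the calls of Elovl6 and Scd1 held in all 8 of these fits.

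Amino acid genes had 2 of 28 members higher and 6 lower, with a median of -0.21. Glul, glutamine synthetase, read 377, 325, 381 and 286 in the E2a-/- arrays and 49.2, 53.4, 56.6 and 60.7 in the Lef1F/F arrays, a difference of -2.63. Bcat2, Slc7a11, the cystine carrier, and Slc1a5, a glutamine carrier, fell by 0.80, 0.69 and 0.60. In the list of TCA cycle and respiration genes, 1 of 29 was higher and 4 lower. Idh2, mitochondrial isocitrate dehydrogenase, rose from 501 ± 19.9 to 1080 ± 59.3, and Ogdh fell by 0.60. In the redox list, 2 of 34 were higher and 6 lower. Mt2, a metallothionein, read 169, 163, 186 and 175 against 599, 614, 1024 and 1052, higher with MigR1-Cre than with MigR1 in the Lef1F/F line. Mt1, its neighbor, was dim in both lines at 86.7 and 87. Gstm2, a glutathione transferase, read 52.4, 57.7, 54.1 and 59.2 against 252, 295, 121 and 140, while Gsta4, another one, fell by 0.59 and Hmox1, heme oxygenase, by 0.52. For neither Mt2 nor Gstm2 did the line difference differ between the vectors past the threshold (limma adjusted p = 0.119 and 0.134). In nucleotide metabolism, 2 of 28 genes were lower and none higher: Pnp fell by 0.52 and Aprt by 0.39, both enzymes that recycle purines. The calls of Slc1a5, Ogdh, Cox7a1, Cox6a2, Gsta4, Hmox1 and Aprt did not hold with certain arrays left out, and the genes lower then numbered 3 to 6 for amino acids, 0 to 4 for the TCA cycle, 2 to 6 for redox and 1 to 3 for nucleotides, with 0 to 2 amino acid genes higher.

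Surface genes were read by family. The background was 12.7% higher and 9.41% lower above the dim range, and 6.9% and 4.88% over all genes. Shares higher and lower were 17.6% and 14.7% for costimulatory and inhibitory receptors and 36.8% and 10.5% for tetraspanins. They were 11.8% and 11.8% for Ly6 and GPI-anchored proteins, 28.6% and 4.76% for antigen presentation, and 10.8% and 0% for adhesion and homing receptors. Among 34 costimulatory and inhibitory receptors, 6 were higher and 5 lower. Ctla4, an inhibitory receptor, read 299, 261, 303 and 243 in the E2a-/- arrays and 2124, 1745, 1103 and 967 in the Lef1F/F arrays, a difference of 2.36 ± 0.17 (SE, limma adjusted p = 7.94e-06). The Lef1F/F MigR1 arrays were the highest, but the line difference did not differ between the vectors past the threshold (limma adjusted p = 0.851). Cd200 rose by 1.55 and Btla, another inhibitory receptor, fell by 1.40, from 321 ± 13.3 to 122 ± 3.77. Cd28 (744 and 937) was not called, and Pdcd1 was dim. Among 19 tetraspanins, 7 were higher and 2 lower. Cd82 read 199, 266, 213 and 230 against 1550, 1357, 1095 and 1192, Cd53 and Tspan13 rose by 1.05 and 1.00 and Cd151 fell by 0.73. With 1 array left out, 4 or 5 costimulatory and inhibitory receptors were higher and 3 to 5 lower.

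Among 17 Ly6 and GPI-anchored proteins, 2 were higher and 2 lower. Ly6d, a marker of early lymphoid cells, read 1251, 1101, 1191 and 982 in the E2a-/- arrays and 128, 129, 157 and 167 in the Lef1F/F arrays, opposite to Ly6k of the same family. Gpc1, a glypican, fell by 1.97, and Cd24a, the heat stable antigen, rose by 0.71. Among 21 antigen presentation genes, 6 were higher and 1 lower. The class I genes H2-D1 and H2-K1 rose by 1.21 and 1.12, and H2-K1 read 794, 822, 764 and 647 against 1692, 1831, 1531 and 1518, while B2m, their shared light chain, read 8524 and 8648 and was not called. Genes of this family are alike in sequence, and probes may read more than 1 of them. Of 37 adhesion and homing receptors, 24 were dim in both lines and 4 were higher, namely Ccr9, Cdh1, Cd2 and Cd96. Cdh1, E-cadherin, read 53.9, 57.4, 55 and 53.5 against 148, 129, 120 and 113, within the dim range in both lines. The calls of Cd96 and H2-M3 did not hold with certain arrays left out, and between 3 and 6 antigen presentation genes were then higher. The 1 antigen presentation gene that fell, Cd74, the class II invariant chain, read 149, 134, 154 and 146 against 115, 119, 117 and 121 within the dim range, and no gene of the list was lower in any fit that left out 1 array.

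Genes of chromosome 14 leaned toward the Lef1F/F line as a group. Of its 284 genes above the dim range in at least 1 line, 165 were called higher in both vectors, which is 58.1%, and 9 were called lower. Their median difference was 0.42, in both MigR1 and MigR1-Cre arrays. On the 7739 other genes the shares were 11.1% higher and 9.64% lower, and the medians of the other chromosomes lay between -0.10 and 0.11. Of the genes named above, Scel, Micu2, Il17rb and Tnfrsf19 lie on chromosome 14 and were higher, and Pnp lies there and was lower. Without genes of chromosome 14, the counts of genes higher became 2 of 14 in the gamma-delta list, 7 of 33 in the Wnt list, 7 of 44 in the cytokine list and 6 of 18 in the tetraspanin list. In no other list did the number of genes higher change. Counts of genes lower were not taken again without chromosome 14.

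**Figure D5:**
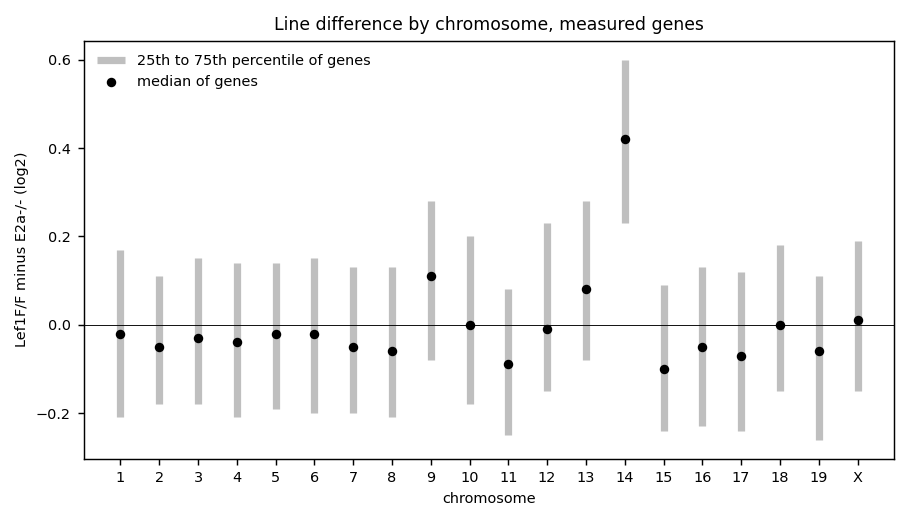
The line difference (y axis, log2, Lef1F/F minus E2a-/-) is summarised per chromosome (x axis) over genes above the dim range in at least 1 line, with points at the median and bars from the 25th to the 75th percentile of genes. Chromosome 14 stands at a median of 0.42, and the others between -0.10 and 0.11.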

How the data were processed

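Trizol-extracted RNA was labelled with a kit that reads transcripts near their 3' end, and the authors normalised the scans of 8 Affymetrix mouse 430 arrays by RMA in RMAExpress (version not stated). The deposited values are intensity on a linear scale, with replicates not pooled, and log2 was taken here with no offset. Arrays were grouped by title. A further field of the labels gives another vector for the E2a-/- MigR1-Cre and Lef1F/F MigR1 arrays and was not used. In the Lef1F/F line the Lef1 level followed the titles, while in the E2a-/- line, where Lef1 is intact, it cannot check the vector. The dChip program, which the study used to compare groups, was replaced by limma.

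Of 45037 probe sets, 34945 had 1 gene symbol, 932 several and 9160 none, by the platform annotation. Genes were named from the first kind and placed on chromosomes through RefSeq (GRCm38.p6). Tests used limma 3.58.1 in R 4.3.3 (lmFit and eBayes, two-sided, Benjamini-Hochberg over all probe sets, threshold 0.05), with line and vector as terms or with 4 group means and 1 contrast per vector. The scripts were tested on simulated data.

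The comparison, the gene lists and the naming rule were chosen with earlier results of these data known. Of 865 entries in 37 lists, 797 were measured under a gene name. Named are Lef1 and Tcf3, the 12 largest differences each way among genes called in both vectors without overlap, up to 4 called members of each list with the largest differences or, where none was called, 2 with the smallest p, the neighbors of Lef1, and other members given as values, which were chosen after their values were seen. Alternatives were other moderation, a filter, scaling, array weights, models, thresholds, folds, probe set choices, alike arrays averaged or as a block, and each array left out.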

Additional observations from a re-analysis of the deposited data

Results flagged for a closer look

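The line difference of 2 listed genes, each read by its brightest probe set, itself differed between the vectors. For Lef1 the difference in the MigR1-Cre arrays minus that in the MigR1 arrays was -1.82 (log2, limma adjusted p = 0.0184), and it changed sign between the vectors, from 0.97 to -0.84. For Syk it was -1.18 (limma adjusted p = 0.0184), and the Lef1F/F line was higher in both vectors, by 1.99 and 0.81. Cre changed the level of Lef1 by -1.87 and of Syk by -1.37 in the Lef1F/F line, and by -0.05 and -0.19 in the E2a-/- line. Without any 1 of the 4 E2a-/- arrays neither gene passed (limma adjusted p between 0.166 and 0.213 for Lef1 and between 0.151 and 0.241 for Syk). Without a Lef1F/F array Lef1 still passed, and Syk passed only without MigR1 array 2. The difference stayed between -1.91 and -1.73 for Lef1 and between -1.23 and -1.13 for Syk. Over all probe sets, 9 passed this test with all arrays. Besides Lef1 and Syk they were of Gja1 (-0.89, limma adjusted p = 0.0461), Cdkn1a (0.81, limma adjusted p = 0.0476), Lamb1, 2810459M11Rik and Cym.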

How the results depend on the processing

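Over all arrays, 9950 probe sets differed between the lines, 5238 with alike arrays averaged, 6269 at a threshold of 0.01, 857 against a fold of 1.5 and 345 against a fold of 2, and between 7521 and 10711 with 1 array left out. In both vectors, 3802 differed, 2090 at a threshold of 0.01, 518 against a fold of 1.5 and 230 against a fold of 2, and between 2018 and 3913 with 1 array left out, the lowest without E2a-/- MigR1 array 1. These thresholds and folds are stricter by construction, and alike arrays averaged leaves 4 samples. The other alternatives stayed within 1.5 times of these counts, and gene counts did so with the mean of all probe sets and without chromosome 14, an alternative added after seeing the data. Line differences that differed between vectors were 2 of the listed genes, 4 with array weights and between 0 and 4 with 1 array left out, and these counts were also added after seeing the data. Of the 128 named genes, none that passed the threshold over all arrays reversed its direction under any alternative. Reversals were not counted for genes that did not pass, such as Lef1. Of the 120 called in both vectors, 89 held with every array left out in turn. The other calls lost with a single array were of differences of at most 1.33 on the log2 scale, the size for Dusp4, and their cause was not tested. The labels number the arrays across the series and pair none of them. Arrays of a line paired across vectors by their correlation, taken as a random block, gave 8769 probe sets over all arrays. Low intensities limit small differences, since RMA compresses them.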

Other observations

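Genes of other groups were also read. The background was again 12.7% higher and 9.41% lower above the dim range, and 6.9% and 4.88% over all genes. Shares higher and lower were 18.2% and 9.09% for interferon response genes and 13.6% and 0% for mitosis genes. They were 0% and 0% for S phase genes and 0% and 20% for sex-linked genes. Of 33 interferon response genes, 6 were higher and 3 lower in the Lef1F/F line in both vectors, with a median of 0.18. Ifih1, the RNA sensor MDA5, read 84.2, 70.9, 82.6 and 73.3 in the E2a-/- arrays and 421, 433, 330 and 397 in the Lef1F/F arrays, and Samd9l and Rtp4 rose by 1.48 and 0.83, while Bst2, a restriction factor also called tetherin, fell by 1.02. Stat2, Irf7, Oas2 and Ifit3 were dim in both lines. Of 22 mitosis genes, 3 were higher and none lower, namely Nusap1, Cdc20 and Ccnb2 (0.66, 0.59 and 0.47), and between 1 and 5 were higher with 1 array left out. In those 8 fits the call of Ccnb2 always held, while that of Nusap1 was lost in 7 and that of Cdc20 in 5. Of 24 S phase genes, none was called in both vectors by limma and 9 were lower in the fit over all arrays, with Pole and Gins1 at -0.26 and -0.20 (limma adjusted p = 0.00648 and 0.00697). Of 10 sex-linked genes, 2 were lower. Kdm5d, a histone demethylase gene on the Y chromosome, read 382, 362, 381 and 360 in the E2a-/- arrays and 43.9, 39.8, 42.9 and 41.7 in the Lef1F/F arrays, and Eif2s3y, on the same chromosome, fell by 0.32. The call of Eif2s3y was lost in 7 of 8 fits that left out 1 array and with trend and robust moderation, while that of Kdm5d held in these. Uty, also on the Y chromosome, read 220 and 243 and was not called.

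The genes that follow are outside the lists and were chosen after their values were seen. Gja1, the gap junction protein connexin 43, read 153, 148, 171 and 180 in the E2a-/- arrays. In the Lef1F/F arrays Gja1 read 1392, 1437, 905 and 877, and its line difference differed between the vectors by -0.89 (limma adjusted p = 0.0461). Ifi202b, of the p200 family to which Mndal belongs, rose by 2.73, opposite to Mndal. Lhfp, Gphn, Ifitm2 and Olfm4 rose by 2.99, 2.99, 2.95 and 2.92. Nbdy, Sfmbt2, Ccdc50, Zfp503 and Ripk4 fell by 3.38, 3.34, 3.29, 3.29 and 3.26.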
